A study of Homo sapiens with 6 samples.

Results

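The genes described are ANO1 and 9 other protein-coding neighbours of CTTN on chromosome 11q13, namely GAL, MRPL21, IGHMBP2, TPCN2, MYEOV, FGF19, FADD, PPFIA1 and SHANK2. They were chosen by name from the deposited gene table, where each symbol matched 1 row, so that they made up 10 of 54644 rows. The TPCN2 row also carried the name AP003071.5, and its values may hold reads of both. SKBR3 is a HER2-positive human breast cancer cell line of epithelial origin. Stable lines were made by lentiviral delivery of the pLVX vector alone (control, 3 libraries) or of pLVX carrying the CTTN cDNA (CTTN, 3 libraries), both selected with puromycin, and polyadenylated RNA was sequenced. The CTTN lines therefore carry an added cDNA as well as the endogenous gene, and each group is a stable line of unstated clonality. No label says that the 3 libraries of a group came from separate cultures, so the p-values measure the spread between libraries, which may be technical. The labels call the source a cell line, while the extraction text also uses the word tumors. SKBR3 copy number at 11q13 was not measured here.

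Band 11q13 is a gene-dense region that is recurrently amplified in breast and head and neck cancers, and the amplified segment often holds CCND1, the gene of cyclin D1, together with ANO1, FADD, PPFIA1 and CTTN. CTTN encodes cortactin, a cytoskeletal protein of lamellipodia and invadopodia and a substrate of Src kinases. Neighbours in an amplicon share a gain in copy number but keep their own promoters, and their products need not share a role. ANO1 forms a calcium-activated chloride channel of the plasma membrane. GAL encodes the neuropeptide galanin, and FGF19 encodes a secreted growth factor that signals through FGFR4 with the co-receptor KLB. FADD is the adaptor that joins death receptors to initiator caspases. PPFIA1 (liprin-alpha-1) and SHANK2 are scaffold proteins of the cell edge and of synapses. TPCN2 is a cation channel of endolysosomes, MRPL21 is a protein of the mitochondrial ribosome, IGHMBP2 is a helicase, and MYEOV is a gene first known for its overexpression in myeloma.

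The RefSeq genes (GRCh38.p14) lay on chromosome 11 in the order GAL, MRPL21, IGHMBP2, TPCN2, MYEOV, FGF19, ANO1, FADD, PPFIA1, CTTN and SHANK2. PPFIA1 lay 14.1 kb and SHANK2 31.3 kb from CTTN. FADD (191 kb) and ANO1 (209 kb) came next, followed by FGF19 (695 kb), MYEOV (1101 kb), TPCN2 (1308 kb), IGHMBP2 (1458 kb), MRPL21 (1495 kb) and GAL (1707 kb). In RefSeq the ANO1 gene spans chr11:69965997-70189530 and FADD chr11:70203296-70207390. The deposited row of ANO1 began at chr11:70078302, inside the RefSeq gene and 92395 bases downstream of the start site in the RefSeq promoter table. The rows AP003555.2 and AP003555.3, whose intervals cover that start site, held 9 and 0 fragments over all 6 libraries. The deposited interval of PPFIA1 was the same as that of CTTN (chr11:70270700-70436584), although the genes had separate rows.

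Sequences of the 250 bases upstream of a RefSeq start site were found for 4 of the 10 genes, ANO1, FADD, PPFIA1 and TPCN2. For ANO1 that start site and its window lie inside the RefSeq gene, which begins at chr11:69965997. Those of ANO1 (chr11:69985657-69985906, plus strand), its nearest neighbour FADD (chr11:70203046-70203295, plus strand) and PPFIA1 (chr11:70270440-70270689, plus strand), the gene next to CTTN, are shown. All 4 genes lie on the same side of CTTN, and ANO1 is the 1 of them that was called. TPCN2, the farthest of the 4 from CTTN, is not shown. Capitals mark the letters GGGCGG (GC box) and CCAAT on either strand. The letters TATAAA were also searched on either strand and occurred in none of the 3.
ANO1: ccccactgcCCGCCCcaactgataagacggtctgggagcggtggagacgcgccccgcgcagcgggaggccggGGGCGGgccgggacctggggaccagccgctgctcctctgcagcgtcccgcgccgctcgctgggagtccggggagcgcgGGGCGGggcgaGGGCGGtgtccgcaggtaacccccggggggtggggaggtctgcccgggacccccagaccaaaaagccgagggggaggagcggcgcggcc
FADD: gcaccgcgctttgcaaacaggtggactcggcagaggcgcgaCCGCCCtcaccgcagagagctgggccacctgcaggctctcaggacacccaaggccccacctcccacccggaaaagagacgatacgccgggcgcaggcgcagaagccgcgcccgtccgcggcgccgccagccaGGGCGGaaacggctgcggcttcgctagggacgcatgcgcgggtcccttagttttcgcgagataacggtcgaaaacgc
PPFIA1: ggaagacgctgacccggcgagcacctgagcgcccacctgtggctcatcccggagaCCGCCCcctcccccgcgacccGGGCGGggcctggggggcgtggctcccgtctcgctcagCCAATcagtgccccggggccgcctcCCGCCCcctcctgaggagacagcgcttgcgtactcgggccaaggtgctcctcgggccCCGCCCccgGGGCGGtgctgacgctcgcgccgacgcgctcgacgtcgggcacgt
The ANO1 sequence held 4 GC boxes and no CCAAT, FADD held 2 GC boxes and no CCAAT, and PPFIA1 held 5 GC boxes and 1 CCAAT. The TPCN2 sequence held 3 GC boxes and 1 CCAAT. Of 35116 human promoters of this length, 42.6% held a GC box, 32% a CCAAT and 10.7% TATAAA. The G and C content was 78% for ANO1, 68.8% for FADD, 76.8% for PPFIA1 and 66% for TPCN2, beside a median of 58% over all promoters. These counts describe the letters in the windows, and the deposited ANO1 transcripts began well downstream of the window shown.

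Gene counts were recovered as whole fragments, with 34887069 to 41279816 fragments per library. CTTN itself was 793, 1011 and 520 CPM (counts relative to library depth, after scaling by trimmed mean of M values) in CTTN libraries 1, 2 and 3 and 299, 307 and 306 CPM in control libraries 1, 2 and 3, a log2 fold change of 1.35 ± 0.22 (SE) with an adjusted p of 0.0248 by the quasi-likelihood test of edgeR with Benjamini-Hochberg adjustment. All 6 luminal epithelial markers examined (ERBB2, GRB7, EPCAM, KRT8, KRT18 and KRT19) exceeded 1 FPKM (fragments scaled by transcript length and library depth) in every library. Of the fibroblast, leukocyte and endothelial markers, only COL1A1 (2.83 to 4.26 FPKM), CD68 (605 to 855 FPKM) and CDH5 (1.43 to 4.45 FPKM) did so. Over all genes, 643 of 14409 tested were called at an adjusted p under 0.05, 350 higher and 293 lower in CTTN cells.

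The CTTN libraries differed from the controls along transcript length. The tested genes with a mean of at least 50 fragments were split by transcript length into 5 groups of 2365 or 2366 genes, and the median log2 ratio to the mean of the controls was taken in each library. In CTTN library 3 this median ran from 0.62 in the shortest group (213 to 1518 bases) to -0.67 in the longest (4177 to 91667 bases). In CTTN library 1 it ran from 0.28 to -0.34, and in CTTN library 2 it lay between -0.01 and 0.02. The controls stayed between -0.06 and 0.04. CTTN library 2 had no such gradient, and its values are read beside each gene below. The part of this gradient in the results was not tested directly, but a fit with the length trend of each library as an offset was added after it was seen, and is called the length-adjusted fit. It called 18.4% of all genes.

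Of the 10 genes, 9 were tested and 3 were called: GAL and MYEOV were higher and ANO1 was lower in CTTN cells. Over all tested genes, 4.46% were called, 2.43% higher and 2.03% lower. The other 6 tested genes did not pass, and FGF19 had no fragments. The log2 fold change was positive for 6 and negative for 3 of the 9, with a median of 0.15 beside 0.01 for all genes. CTTN and control libraries did not overlap for 5 of the 9, of which 4 (GAL, TPCN2, MYEOV and FADD) were higher and 1 (ANO1) was lower in CTTN cells. The share of all genes whose groups did not overlap was 38.8%, made up of 19.4% of all genes higher and 19.4% lower in CTTN cells. None of the 10 genes, CTTN, the related gene lists or the other 11q13 genes was called by edgeR when CTTN library 1 or any 1 control was left out, in fits that called 15 to 32 genes in all. In bulk RNA, fewer cells with a transcript and less of it per cell cannot be told apart.

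**Figure D1:**
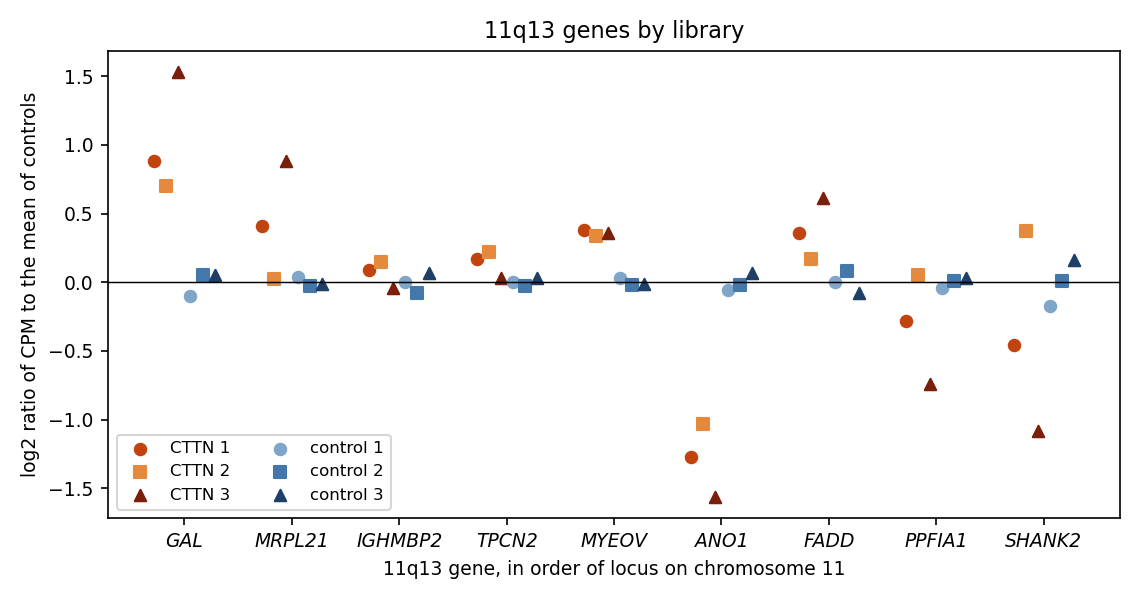
Log2 ratio of CPM to the mean of the controls (y axis) for the 9 tested 11q13 genes in order of locus (x axis), 1 point per library, CTTN libraries in reds and controls in blues. ANO1 is the gene with all CTTN libraries below -1, GAL has all at 0.70 or above, and the CTTN libraries of SHANK2, PPFIA1 and MRPL21 spread widely.

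ANO1, the chloride channel gene, had the largest absolute log2 fold change of the 9 tested genes. Its level was 19.9, 23.4 and 16.3 CPM in CTTN libraries 1, 2 and 3 and 46.3, 47.2 and 49.8 CPM in control libraries 1, 2 and 3. Every CTTN library lay far below every control, and the groups did not overlap. The underlying fragments were 705, 879 and 538 in CTTN cells and 1636, 1980 and 1912 in controls. The log2 fold change was -1.26 ± 0.14 (SE, adjusted p = 0.00794), which is 2.40-fold lower in CTTN cells. Per length, the mean fell from 14.1 ± 0.86 FPKM (SD, n = 3) in controls to 5.70 ± 1.28 FPKM (SD, n = 3) in CTTN cells, and the gene moved from rank 5 to rank 8 of the 10 genes. The log2 ratio to the controls was -1.03 in CTTN library 2, -1.27 in library 1 and -1.56 in library 3. The length-adjusted fit gave -1.12 ± 0.07 (adjusted p = 0.000105), and without CTTN library 3 the value was -1.14 ± 0.10 (adjusted p = 0.000457). The call was lost when CTTN library 1 (adjusted p = 0.0717) or control library 1, 2 or 3 (0.059, 0.0706 and 0.0696) was left out, with log2 fold changes from -1.30 to -1.23.

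Of the 15 transcripts assembled for ANO1, 5 were tested. The full-length reference transcript ENST00000355303 (4790 bases, protein coding) was 1.2, 1.48 and 0.809 FPKM in CTTN libraries and 4.05, 4.05 and 5.10 FPKM in controls, with no overlap. The reference transcript ENST00000531349 (3552 bases, protein coding) was 1.54, 1.80 and 0.406 FPKM in CTTN libraries and 4.13, 3.80 and 5.02 FPKM in controls, again with no overlap. A form of ENST00000355303 with other junctions (4613 bases) was 1.90, 1.65 and 2.39 FPKM in CTTN libraries and 2.32, 2.59 and 1.03 FPKM in controls, and these overlapped. The log2 fold changes of the 3 were -1.95 ± 0.30, -1.81 ± 0.58 and -0.04 ± 0.39 (SE). The full-length form and the form with other junctions were assigned to the same start site, whose summed level was 3.10, 3.16 and 3.20 FPKM in CTTN cells and 6.44, 6.64 and 6.13 FPKM in controls. That start site had a log2 fold change of -1.06 ± 0.11 (SE), the smallest SE among the 4 tested start sites of ANO1. Reads shared between these forms were divided by the authors' software, so the split between them is less certain than their sum.

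None of these transcript values passed adjustment. By edgeR, 0 of 58051 transcripts and 0 of 35799 start sites in the whole tables were called, and limma on log2(FPKM + 1) also called 0 in each. At an unadjusted p under 0.05 there were 3629 transcripts (6.25%) and 3732 start sites (10.4%). Of the 10 genes' 149 transcripts and 72 start sites, 53 and 32 were tested, and 7 and 7 had an unadjusted p under 0.05. ANO1 held 3 of these transcripts and 3 of these start sites, all with negative log2 fold changes.

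**Figure D2:**
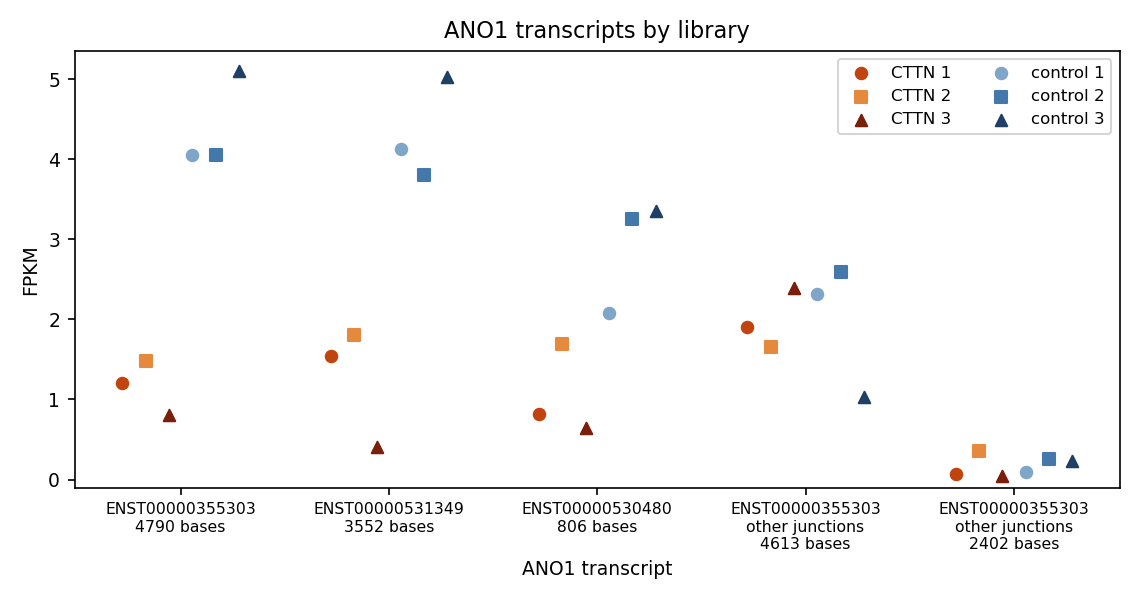
FPKM (y axis) of the 5 tested ANO1 transcripts (x axis, with reference name and length in bases), 1 point per library. CTTN and control libraries separate for the first 3 transcripts, with at most 1.80 FPKM in CTTN cells and at least 2.08 FPKM in controls, and overlap for both forms with other junctions.

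The anoctamins are a family of ion channels and lipid scramblases. Of 10 anoctamin genes, 7 were tested, and beside ANO1 only ANO9 was called. ANO9 was 19.2, 20.2 and 18.2 CPM in CTTN libraries and 12.6, 10.2 and 11.5 CPM in controls, without overlap. Its log2 fold change was 0.75 ± 0.11 (SE, adjusted p = 0.0167), opposite in sign to ANO1. The median log2 fold change of the 7 was -0.16, beside 0.01 for all genes.

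Of the secreted factors, GAL was the gene that rose. Its level was 7.69, 6.70 and 12.2 CPM in CTTN libraries and 3.87, 4.27 and 4.25 CPM in controls. Every CTTN library lay above every control, and CTTN library 3 stood well above the other two. The fragments behind these values were few, 252 to 402 in CTTN libraries and 137 to 179 in controls. The log2 fold change was 1.10 ± 0.23 (SE, adjusted p = 0.0469), or 2.14-fold higher in CTTN cells. Only 1 GAL transcript was tested, ENST00000265643 of 818 bases, and it carried the whole FPKM level of the gene.

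GAL transcripts were short, in the group of genes that was raised as a whole in CTTN libraries 1 and 3. The log2 ratio was 0.70 in CTTN library 2, where that group's median was 0.02, and 0.88 and 1.53 in libraries 1 and 3, where it was 0.28 and 0.62. The length-adjusted value was 0.69 ± 0.11 (adjusted p = 0.00501), and the value without CTTN library 3 was 0.80 ± 0.13 (adjusted p = 0.00748). The call was lost without CTTN library 1 (adjusted p = 0.141) and without control library 1, 2 or 3 (0.191, 0.205 and 0.189), with log2 fold changes of 1.05 to 1.19.

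FGF19 was not detected. It had 0 fragments in all 6 libraries, which allows a level of up to 0.0727 to 0.086 CPM in a single library (3 fragments of its total) or 0.0135 CPM over the 6, for counting error only. FGF3 and FGF4, growth factor genes of the same cluster, also had 0 fragments in all 6 libraries. Of 8 genes for galanin and FGF receptors and the co-receptor KLB, 4 were tested, and KLB, GALR1, GALR2 and GALR3 were not. FGFR4, a receptor for FGF19, was the 1 called: it was 38.4, 38.0 and 45.3 CPM in CTTN libraries and 26.8, 26.6 and 29.6 CPM in controls. The libraries did not overlap, and the log2 fold change was 0.55 ± 0.10 (SE, adjusted p = 0.0353).

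MYEOV had the smallest SE of the 3 called genes. It was 46.4, 44.6 and 45.8 CPM in CTTN libraries and 36.4, 34.8 and 34.9 CPM in controls. The groups did not overlap, and the log2 ratios of the CTTN libraries were nearly the same, 0.38, 0.34 and 0.36. The log2 fold change was 0.37 ± 0.08 (SE, adjusted p = 0.0465), a 1.29-fold higher level. The rise was about as large in CTTN library 2, which had no length gradient, but the length-adjusted fit gave 0.22 ± 0.07 (adjusted p = 0.0669), short of the threshold. The call was also lost without CTTN library 1 (adjusted p = 0.214) or control library 1, 2 or 3 (0.191, 0.226 and 0.21), where the log2 fold change was 0.35 to 0.38. The start site with the largest share of the MYEOV level had 28.6, 28.3 and 28.8 FPKM in CTTN libraries and 21.4, 23.6 and 21.7 FPKM in controls.

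FADD, the death receptor adaptor and the nearest neighbour of ANO1, was higher in every CTTN library without passing the test. It was 35.4, 30.8 and 42.4 CPM in CTTN libraries and 27.6, 28.9 and 25.7 CPM in controls. FADD had a log2 fold change of 0.40 ± 0.13 (SE, adjusted p = 0.11), opposite in sign to that of ANO1. It was 0.27 ± 0.08 in the length-adjusted fit (adjusted p = 0.0445), and FADD was called there and without CTTN library 2 (0.50 ± 0.10, adjusted p = 0.00578). Those fits called 18.4% and 47.1% of all genes. Around FADD, 12 of 14 genes of death receptor signalling were tested and 0 were called in either direction, beside 4.46% of all genes. Their median log2 fold change was -0.10. CASP8, the initiator caspase bound by FADD, was 28.7, 27.3 and 25.4 CPM in CTTN libraries and 31.2, 29.4 and 27.9 CPM in controls, and these overlapped.

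The scaffold genes PPFIA1 and SHANK2 flank CTTN and varied widely among the CTTN libraries. PPFIA1 was 95.9, 119 and 69.9 CPM in CTTN libraries and 113, 116 and 117 CPM in controls. CTTN library 2 lay above all controls, while CTTN libraries 1 and 3 lay below them. PPFIA1 had a log2 fold change of -0.28 ± 0.18 (SE, adjusted p = 0.292). SHANK2, whose product binds cortactin and which had the longest transcripts of the 10 genes, was 20.9, 37 and 13.7 CPM in CTTN libraries and 25.6, 28.9 and 31.8 CPM in controls. Its log2 fold change was -0.27 ± 0.32 (SE, adjusted p = 0.571). The sign turned to 0.01 ± 0.20 without CTTN library 3 and to 0.07 ± 0.14 in the length-adjusted fit. Without CTTN library 2, SHANK2 (-0.74 ± 0.17, adjusted p = 0.00854) and PPFIA1 (-0.49 ± 0.13, adjusted p = 0.0126) were called lower, in a fit where 47.1% of all genes were called, and without CTTN library 3, where 8.55% were called, neither was.

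Within PPFIA1, a long and a short transcript stood in opposite order across the CTTN libraries. The full-length transcript ENST00000253925 (5234 bases, protein coding) was 13, 18.3 and 5.66 FPKM in CTTN libraries and 16.9, 17.3 and 18.0 FPKM in controls. The transcript ENST00000531657 (3036 bases, retained intron) was 4.74, 1.24 and 9.89 FPKM in CTTN libraries and 2.53, 2.44 and 2.24 FPKM in controls. The long form made up 55.5 to 61.8% of the PPFIA1 level in controls, 55.2% in CTTN library 2, 48.6% in library 1 and 22.1% in library 3. Library 3 was lowest for the long form and highest for the shorter one. A link to the length gradient was not tested. In that library the group of genes of 2955 to 4177 bases had a median log2 ratio of -0.31. Neither transcript passed the test (adjusted p = 0.791 and 0.77). Of 14 other liprins and scaffold partners, 11 were tested and 0 were called, beside 4.46% of all genes. Their median log2 fold change was -0.12.

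Per length (FPKM), MRPL21 had the highest mean of the 10 genes in both groups. In CPM, where PPFIA1 was higher in every control, MRPL21 was 99.7, 75.5 and 139 CPM in CTTN libraries and 77.2, 73.3 and 73.5 CPM in controls, with CTTN library 2 inside the control range. For MRPL21 the log2 fold change was 0.49 ± 0.20 (SE, adjusted p = 0.16) and 0.04 ± 0.05 in the length-adjusted fit. It was 0.23 ± 0.11 without CTTN library 3 (adjusted p = 0.217). Without CTTN library 2 it was 0.67 ± 0.13 (adjusted p = 0.00411), a call in a fit where 47.1% of all genes were called. Of the 49 genes of the large subunit of the mitochondrial ribosome, MRPL21 among them, 48 had a positive log2 fold change. Values ran from -0.09 (MRPL42) to 0.88 (MRPL23), and 0 were called, beside 4.46% of all genes. The share of positive values was 50.9% over all 14409 genes tested and 80.4% over the 3604 of them with transcripts of up to 1518 bases, a length that 37 of the 49 did not exceed. Their median log2 ratio was 0.32, 0.01 and 0.65 in CTTN libraries 1, 2 and 3. With the length adjustment their median log2 fold change went from 0.34 to 0.03. In that fit, which called 18.4% of all genes, 6 of the 49 were called higher and 1 lower.

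TPCN2 and IGHMBP2 differed little between groups. TPCN2 was 30.3, 31.1 and 27.5 CPM in CTTN libraries and 26.8, 26.2 and 27.1 CPM in controls. Its libraries did not overlap, by a narrow margin, and the log2 fold change was 0.15 ± 0.08 (SE, adjusted p = 0.248). The length-adjusted value was 0.26 ± 0.06 (adjusted p = 0.0161), so that TPCN2 was called there, in a fit that called 18.4% of all genes. The 4 related endolysosomal channel genes (TPCN1 and the 3 MCOLN genes) were all tested, and 0 were called, beside 4.46% of all genes. IGHMBP2 was 24.1, 24.9 and 22.1 CPM in CTTN libraries and 22.8, 21.4 and 23.6 CPM in controls. The groups overlapped, with a log2 fold change of 0.07 ± 0.09 (SE, adjusted p = 0.581).

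Per length, the 10 genes covered a wide range of levels in control cells. MRPL21 led with 131 ± 1.96 FPKM (SD, n = 3), followed by PPFIA1 with 29.9 ± 0.641 and MYEOV with 24.5 ± 0.828 FPKM. FADD (15.9 ± 1.14 FPKM) and ANO1 (14.1 ± 0.86 FPKM) came next, and their control libraries overlapped. TPCN2 (10 ± 0.309 FPKM) lay above IGHMBP2 (8.30 ± 0.885 FPKM) and GAL (7.79 ± 0.402 FPKM), which overlapped each other. SHANK2 was the lowest detected gene with 4.35 ± 0.599 FPKM. In CTTN cells the order of the means changed: MYEOV (30.3 ± 0.685 FPKM) lay above PPFIA1 (28.5 ± 4.03 FPKM), GAL (17.3 ± 6.73 FPKM) rose to rank 5, and ANO1 lay below all but SHANK2 and FGF19. MYEOV and PPFIA1 overlapped in CTTN cells.

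**Figure D3:**
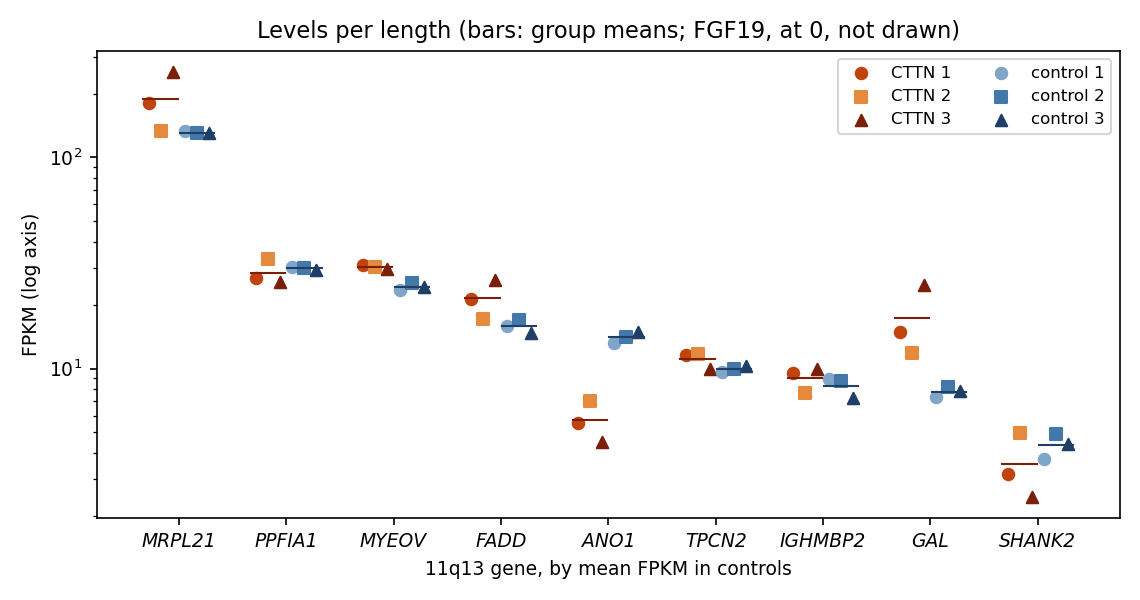
FPKM (log y axis) of the 9 detected 11q13 genes, ordered by mean level in controls (x axis), 1 point per library, with bars at the group means. ANO1 falls from 14.1 to 5.70 FPKM and GAL rises from 7.79 to 17.3 FPKM, while MRPL21 stays the highest gene in both groups.

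The changes of ANO1, GAL and MYEOV were set beside the rest of the neighbourhood. Between 68 and 72 Mb of chromosome 11 the files held 95 other gene rows besides CTTN, of which 23 were tested and 1 was called. The share called over all tested genes was 4.46%. The called row was AP000439.3, which lies between MYEOV and CCND1. It was 1.21, 1.06 and 1.03 CPM in CTTN libraries and 0.424, 0.381 and 0.365 CPM in controls, from 14 to 43 fragments. Its log2 fold change was 1.5 ± 0.21 (SE, adjusted p = 0.0167), and the libraries did not overlap. CCND1, the cyclin D1 gene and the best known gene of the amplicon, was 306, 345 and 284 CPM in CTTN libraries and 324, 356 and 349 CPM in controls. It overlapped between groups, with a log2 fold change of -0.14 ± 0.10 (SE, adjusted p = 0.336). CPT1A, which admits fatty acids to mitochondria, had -0.19 ± 0.13 (adjusted p = 0.32), and DHCR7, an enzyme of cholesterol synthesis, had -0.13 ± 0.08 (adjusted p = 0.289). The median log2 fold change of the 23 was 0.09, beside 0.01 for all genes.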

How the data were processed

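RNA was measured in 6 SKBR3 libraries, 3 control and 3 CTTN, made with a stranded polyadenylated mRNA kit and sequenced paired-end. Per the labels, the authors used bcl2fastq 2.20.0, Trimmomatic, STAR and Cufflinks with GRCh38. The methods text names another build and trimming tool, but the deposited intervals follow GRCh38. Whether counting used strand is not given in the sources used here, so overlapping antisense genes cannot be told apart. The authors deposited estimated counts per gene, transcript and start site, divided by a scale per library, and FPKM values. Gene counts multiplied by that scale were whole within 0.01 for 100% of values between 0.5 and 50, and were used as recovered fragments. Transcript and start-site counts were rounded to whole numbers. Coding-sequence tables were not used. The labels number the control columns differently from the deposited sample table, so controls were mapped as a group and their numbers follow the run folder names.

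Counts were tested with edgeR 4.0.16 (R 4.3.3; filterByExpr, trimmed mean of M values, quasi-likelihood F-test, no covariate) on each whole table, with Benjamini-Hochberg adjustment over all features tested and a threshold of 0.05. Genes tested numbered 14409. The SE is the absolute log2 fold change divided by the square root of F. CPM, SD and log2 ratios (prior count 2) were computed from the same fragments. FPKM serves for levels between genes. Alternatives were DESeq2 1.42.0, limma 3.58.1 on log2(FPKM + 1) and log2(FPKM + 0.1), other scaling, no count filter, deposited counts unscaled, a 1.5-fold minimum, a replicate block and leaving out each library. An offset from a lowess of each library's deviation on transcript length (span 0.5, genes with a mean of at least 50 fragments) was added after seeing the data. The fit was tested on simulated data. Libraries of a group differed beyond sampling noise, so none was counted as a duplicate.

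The genes, the related lists and the tests were chosen with earlier results of these data known. Named genes were the 10 genes, CTTN, called genes of the related lists and of 68 to 72 Mb (at most 10 per list), CCND1, FGF3, FGF4, CPT1A and DHCR7, and the 5 genes with a mean of at least 1 FPKM nearest to ANO1 in pattern. CASP8 and the transcripts of ANO1 and PPFIA1 described were chosen after their values were seen. Promoter sequences and gene coordinates are from RefSeq (GRCh38.p14). Motifs were sought as given, on both strands.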

Additional observations from a re-analysis of the deposited data

How the results depend on the processing

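The fold changes of ANO1 (-1.40 to -1.12), GAL (0.69 to 1.25) and MYEOV (0.22 to 0.38) kept their signs in all 14 alternatives, and ANO1 was called in 10, GAL in 7 and MYEOV in 5. SHANK2 turned positive without CTTN replicate 3 (0.01) and with the length offset (0.07), and was called without CTTN replicate 2 (-0.74). The length offset and its 2658 called genes (18.4%) were chosen after seeing the data. Beside 643 called genes, there were 976 without a count filter, 2074 by the DESeq2 test and 185 and 180 by limma with a pseudocount of 1 and 0.1. Leaving out 1 library gave 15 to 6925 called genes, with 6925 without CTTN replicate 2, and 15 to 32 without CTTN replicate 1 or any control. The cause was not tested. A 1.5-fold minimum gave 479 called genes. Beside 3 called genes of the 10, 2 were called (ANO1 and GAL) with the 1.5-fold minimum and without a count filter (MYEOV 1.29-fold, and adjusted p = 0.0757), limma called 1 with either pseudocount (ANO1), and leaving out 1 library gave 0 to 7. Beside 1 called gene among the other 11q13 genes, limma with a pseudocount of 1 called 0, and leaving out 1 library gave 0 to 5. Beside 3 called genes in the related lists (ANO1, ANO9 and FGFR4), there were 7 without a count filter, 12 by DESeq2, 15 with the length offset, and 0 to 58 when 1 library was left out. Of all genes, the main fit called 4.46% and the length offset 18.4%. The highest leave-out counts were 7 of the 10 genes, 5 other 11q13 genes and 58 in the related lists. All came without CTTN replicate 2, where 47.1% of all genes were called. Transcripts and start sites of the 10 genes called stayed at 0 in every alternative run for them.

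Replicate numbers of CTTN and control libraries did not pair: deviations of same-numbered libraries had correlations of 0.023, 0.08 and -0.191. With the number as a replicate block, 105 genes were called, 1 of the 10 (ANO1, adjusted p = 0.0393), 0 of the other 11q13 genes and 1 of the related lists, and GAL, MYEOV and CTTN itself lost their calls (adjusted p = 0.0837, 0.129 and 0.0588). At 34887069 to 41279816 fragments a library, GAL was the called gene of the 10 with the fewest fragments (137 to 402), and AP000439.3 had 14 to 43.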

Other observations

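Outside 11q13, 5 of 11746 genes with a mean of at least 1 FPKM lay nearest to ANO1 in their pattern over the 6 libraries, by the root mean square difference of mean-centred log2(FPKM + 1). The nearest was CP, the gene of the copper-carrying ferroxidase ceruloplasmin, at a distance of 0.067. CP was 16.6, 21.4 and 13.9 FPKM in CTTN libraries 1, 2 and 3 and 42.7, 42.8 and 46.0 FPKM in control libraries 1, 2 and 3. The row of GPRC5A, an orphan receptor induced by retinoic acid, which also carries MIR614, followed at 0.114, with 5.84 to 11.3 FPKM in CTTN cells and 19.7 to 22.2 FPKM in controls. The shared row of CEACAM5, CEACAM6 and AC243967.1, which holds carcinoembryonic antigen adhesion molecules, lay at 0.117. DCAF4L2 lay at 0.127, with at most 0.584 FPKM in CTTN cells and at least 1.97 FPKM in controls. CDH5, the cadherin of endothelial junctions, lay at 0.15, with 1.43 to 2.02 FPKM in CTTN cells and 3.96 to 4.45 FPKM in controls. The other endothelial markers examined, PECAM1 (at most 0.022 FPKM) and VWF (at most 0.166 FPKM), were near 0 in every library. The patterns were matched on the same libraries that define them, so the likeness is a description over 6 points that share their group structure.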
